A study of Mus musculus with 4 samples.

Results

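The hedgehog genes examined here are the 3 ligand genes Shh, Ihh and Dhh, the receptor gene Ptch1, the signal transducer gene Smo, the ligand-binding inhibitor gene Hhip, and the coreceptor genes Gas1, Boc and Cdon. They were taken by name, and all 9 were found among the 21911 protein-coding genes of the annotation used. For each gene, every peak of H3K27me3 inside the gene or within 10 kb of either end was collected, together with the rows that the authors' annotated tables give to that symbol. H3K27me3 is the trimethylation of lysine 27 on histone H3 that the Polycomb enzyme Ezh2 places, and genes that carry it at their start are usually silent. It was measured by CUT&RUN, in which an antibody brings a nuclease to its target and the released DNA is sequenced, in erythro-myeloid progenitors (EMPs) of the mouse yolk sac at E10.5. EMPs are the KIT+CD41+CD16/32+ progenitors that bud from hemogenic endothelium and give red and myeloid cells.

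The series holds 4 libraries in 4 groups of 1. For each of 2 cell numbers, 500 and 15000 EMPs, there is 1 H3K27me3 library and 1 IgG control library, and IgG values were not analysed here. All groups shared the strain C57BL/6, the stage, the tissue and 1 genotype label, which combines Ezh2fl/fl and Tie2-Cre+/+ with the words wild type. The study treats the cells as wild type. Tie2-Cre acts in endothelium and in the blood cells derived from it, and the label alone does not say whether Ezh2 was intact. The libraries of 500 EMPs had 17 cycles of PCR and reads of 76 bp, and those of 15000 EMPs had 16 cycles and 59 bp. Peaks were called at p thresholds of 0.01 for 500 EMPs and 0.05 for 15000 EMPs, and the study's reporting summary gives fewer reads and a lower alignment rate for 500 EMPs. That summary's command listing pairs each threshold with the other cell number's library, which the files cannot settle, and the lists are described here as labelled. Cell number, instrument, read length, amplification, depth and threshold therefore cannot be told apart. With 1 library per cell number there are no replicates and no test, the peak lists used here hold no reads or scores, and the depth behind a peak is unknown from them. A bulk library also does not tell a mark on all EMPs from a mark on some of them.

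Hedgehog ligands are secreted, lipid-modified proteins. Without ligand, the receptor Ptch1 holds the membrane protein Smo inactive, and ligand binding to Ptch1 together with Gas1, Boc or Cdon releases Smo, so that Gli transcription factors switch on target genes. Ptch1 and Hhip are themselves targets and restrain the signal. In the early yolk sac, Ihh made by the visceral endoderm is known to act on the mesoderm that forms the first blood and vessels.

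Promoter sequences of 7 of the 9 genes were matched by symbol in the RefSeq table (GRCm38.p6), all but Shh and Boc. The 250 bases before the start are shown for 4 genes, 5′ to 3′ on the transcribed gene's strand, because peaks of the 15000-EMP library lay over the starts of Ihh and Dhh and not over those of Hhip and Smo. The capitals mark CpG dinucleotides, which are dense in most promoters bound by Polycomb. The windows are chr1:74951673-74951922 (minus strand) for Ihh, chr15:98898541-98898790 (minus strand) for Dhh, chr8:80058009-80058258 (minus strand) for Hhip and chr6:29735247-29735496 (plus strand) for Smo, all in mm10.
Ihh: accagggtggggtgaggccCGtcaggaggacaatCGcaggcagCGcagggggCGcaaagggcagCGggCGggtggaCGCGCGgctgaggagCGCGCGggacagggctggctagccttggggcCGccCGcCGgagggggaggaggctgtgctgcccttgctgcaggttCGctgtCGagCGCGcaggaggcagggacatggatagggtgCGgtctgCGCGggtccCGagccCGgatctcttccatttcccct
Dhh: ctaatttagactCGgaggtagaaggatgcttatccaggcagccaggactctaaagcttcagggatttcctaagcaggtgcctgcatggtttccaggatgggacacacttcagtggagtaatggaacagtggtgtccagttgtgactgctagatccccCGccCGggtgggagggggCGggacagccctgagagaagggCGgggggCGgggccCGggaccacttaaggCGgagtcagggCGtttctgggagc
Hhip: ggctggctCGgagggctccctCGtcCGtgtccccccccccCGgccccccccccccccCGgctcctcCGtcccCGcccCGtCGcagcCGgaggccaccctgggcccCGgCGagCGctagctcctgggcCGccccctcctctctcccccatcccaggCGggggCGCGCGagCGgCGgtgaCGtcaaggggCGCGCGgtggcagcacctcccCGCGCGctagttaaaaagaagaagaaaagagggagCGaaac
Smo: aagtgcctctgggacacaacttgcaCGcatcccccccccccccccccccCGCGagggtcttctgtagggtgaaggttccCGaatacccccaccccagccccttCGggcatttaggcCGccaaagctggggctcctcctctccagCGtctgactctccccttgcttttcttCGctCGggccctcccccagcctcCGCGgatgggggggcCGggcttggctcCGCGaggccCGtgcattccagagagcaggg
These stretches held 24 CpG in Ihh, 9 in Dhh, 28 in Hhip and 15 in Smo. The covered promoters of Ihh and Dhh thus lay on either side of the uncovered promoter of Smo in CpG number, and the uncovered Hhip promoter held the most.

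The mark was found at 5 of the 9 genes with 500 EMPs and at 8 of the 9 with 15000 EMPs. With 500 EMPs the genes were Shh, Ihh, Dhh, Ptch1 and Boc, and with 15000 EMPs Hhip, Gas1 and Cdon were added. Among all protein-coding genes, 15.1% had a peak in the gene or within 10 kb with 500 EMPs and 25% with 15000 EMPs. The same 5 and 8 genes had a peak within 3 kb of the gene start, where the shares of all genes were 9.94% and 17%. A peak lay across the start itself at Shh alone with 500 EMPs, against 1.41% of all genes, and at Shh, Ihh, Dhh, Ptch1 and Boc with 15000 EMPs, against 8.64%. Smo had no peak in either library. The genes were chosen with earlier results of these data known, and these counts are descriptions of 2 libraries.

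**Figure D1:**
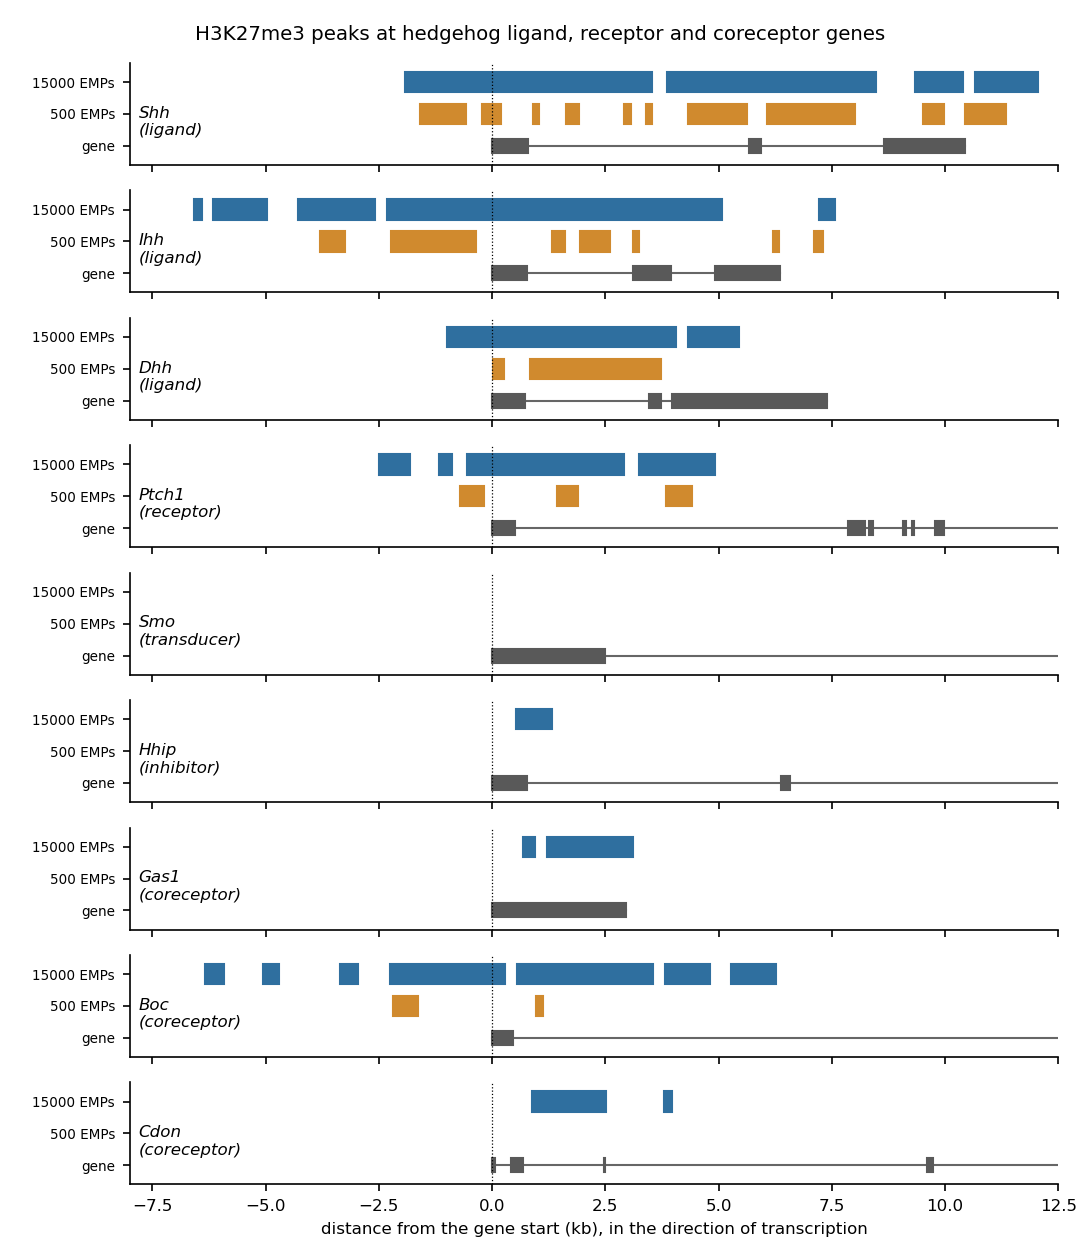
Position of H3K27me3 peaks (orange, 500 EMPs; blue, 15000 EMPs) relative to the gene start in kb, with exons of all annotated transcripts as grey boxes; long genes run on past the right edge, where peaks of Boc and Ihh are not drawn. Broad 15000-EMP peaks crossed the starts of Shh, Ihh, Dhh, Ptch1 and Boc, those at Hhip, Gas1 and Cdon lay after the start, and Smo was empty.

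Shh, the ligand that patterns the neural tube and limb, was covered almost throughout. The gene spans chr5:28456815-28467256 on the minus strand (mm10). With 15000 EMPs, 4 peaks lay in or near it, and peaks covered 9212 bp of the gene, or 88.2%, and 74.2% of its exonic bases. The widest, 5451 bp at chr5:28463721-28469171, reached from -1915 to 3535 bp relative to the start, and the next, 4621 bp, reached from 3863 to 8483 bp. With 500 EMPs the same stretch was called as 10 peaks of 137 to 1949 bp that covered 44.5% of the gene. One of these, 424 bp at chr5:28467065-28467488, crossed the start. The 5451-bp peak overlapped 6 of the 500-EMP peaks and the 4621-bp peak overlapped 2.

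Ihh, the ligand known from visceral endoderm and growing cartilage, carried the widest peak of the group. The gene spans chr1:74945315-74951672 on the minus strand. With 15000 EMPs, a peak of 7380 bp at chr1:74946605-74953984 reached from -2312 to 5067 bp around the start, so that 79.7% of the gene was covered. Separate peaks of 1700, 1188 and 178 bp followed further upstream. Within 10 kb of the 3′ end, peaks of 341 and 722 bp were given by the authors to the neighbouring gene Cfap65. With 500 EMPs, 7 peaks of 137 to 1881 bp lay at Ihh and covered 19.3% of the gene. None of them touched the start: the nearest edge lay 359 bp before it, and the first peak downstream began at 1325 bp. The 7380-bp peak overlapped 4 of these peaks. A 137-bp peak at the 3′ end of the gene, chr1:74945331-74945467, was the only one of the 24 peaks of 500 EMPs at these genes with no 15000-EMP counterpart, and 137 bp is the smallest width in the 500-EMP list.

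Dhh, the ligand of Sertoli cells and peripheral nerve, was covered mainly from before its start into its last exon. The gene spans chr15:98891152-98898540 on the minus strand. With 15000 EMPs, a peak of 5046 bp at chr15:98894487-98899532 reached from -992 to 4053 bp, and a peak of 1119 bp lay further inside, giving 70.0% of the gene. With 500 EMPs, a peak of 2883 bp, the widest of that library at these genes, lay from 847 to 3729 bp, and one of 247 bp began 23 bp after the start. Together they covered 42.4% of the gene. The annotated gene Rhebl1, transcribed in the same direction, overlaps the 3′ part of Dhh and starts 4000 bp after the Dhh start, beneath the 5046-bp peak, so peaks there cannot be given to 1 of the genes. The body of Rhebl1 itself was covered for 1173 bp with 15000 EMPs and 0 bp with 500 EMPs.

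Ptch1, the receptor that holds Smo in check, was marked around its first start and not along its length. The gene spans chr13:63508328-63573598 on the minus strand. With 15000 EMPs, a peak of 3457 bp at chr13:63570687-63574143 reached from -545 to 2911 bp, and 3 further peaks lay between -2492 and 4930 bp. With 500 EMPs, 3 peaks of 573, 474 and 532 bp lay inside the same stretch, the nearest ending 180 bp before the start. Covered bases made up 7.04% of the 65271-bp gene with 15000 EMPs and 1.60% with 500 EMPs. The gene has 10 annotated transcript starts. The one to which the RefSeq promoter belongs, 7863 bp after the first, held no peak in either library, and the nearest peaks ended 2933 bp away with 15000 EMPs and 3459 bp away with 500 EMPs.

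Smo, the membrane protein that passes the signal inwards, differed from the other genes. Within 10 kb of the gene (chr6:29735503-29761365, plus strand), no base was covered in either library. The nearest 15000-EMP peak, 2454 bp at chr6:29717204-29719657, ended 15846 bp before the gene, and the authors' table gives it to Smo as an upstream peak. The nearest 500-EMP peak ended 42522 bp before the gene. Hhip, the surface protein that binds and removes ligand, had 1 peak, of 789 bp at chr8:80056693-80057481, with 15000 EMPs, from 525 to 1313 bp after its start across the end of the first exon, and none with 500 EMPs. The nearest 500-EMP peak lay 1252741 bp from the Hhip gene.

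The coreceptors were marked unequally. Boc, which guides commissural axons as well as binding ligand, had 14 peaks in the gene or within 10 kb with 15000 EMPs. Of these, a 562-bp peak lay inside the neighbouring gene Cfap44. One of 2549 bp, chr16:44558611-44561159, crossed the start from -2262 to 286 bp, and one of 3010 bp lay from 548 to 3557 bp. A further group of 4 peaks lay 24575 to 28841 bp after the start, in introns. With 500 EMPs, Boc had only 2 peaks, of 549 bp upstream and 164 bp inside. Both lay within 15000-EMP peaks.

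Gas1, a GPI-anchored coreceptor made from a gene without introns, had 2 peaks with 15000 EMPs, of 273 and 1895 bp, that together covered 68.2% of the gene, the first beginning 674 bp after the start and the second running past the 3′ end. Cdon, the closest relative of Boc, had 2 peaks with 15000 EMPs, of 1622 and 171 bp, the wider from 889 to 2510 bp after the start. Only 29 of the exonic bases of Cdon were covered. Neither gene had a peak with 500 EMPs, and the nearest 500-EMP peak lay 1364485 bp from Gas1 and 66573 bp from Cdon. At Hhip, Gas1 and Cdon alike, 0 bp before the start was covered within 10 kb in either library.

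Since the peak lists used here give no height, the extent of the mark was compared as the length covered within 10 kb on either side of each gene start. At Shh it was 5884 bp with 500 EMPs and 10738 bp with 15000 EMPs, at Ihh 3865 and 10790 bp, and at Dhh 3130 and 6165 bp. At Ptch1 the lengths were 1579 and 6104 bp, and at Boc 713 and 8717 bp. The 3 ligand genes were the most covered members with 500 EMPs, whereas with 15000 EMPs Boc ranked above Dhh. With peaks at most 3 kb apart joined, the 500-EMP order changed, and Ptch1 with 5116 bp exceeded Dhh with 3707 bp. The 15000-EMP order changed too, with Boc (12614 bp) above Shh (11916 bp) and Ptch1 (7423 bp) above Dhh (6443 bp). Within 3 kb of the start, unjoined, the 15000-EMP lengths were 5038 bp at Boc, 4916 bp at Shh, 4424 bp at Ptch1 and 3993 bp at Dhh. Gas1 had 0 and 2168 bp, Cdon 0 and 1793 bp, Hhip 0 and 789 bp, and Smo 0 bp in both.

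The median over the 9 genes was 713 bp with 500 EMPs and 6104 bp with 15000 EMPs, against a median of 0 bp over all protein-coding genes in each library. With peaks at most 3 kb apart joined the 500-EMP median over the 9 genes was 3323 bp, and within 3 kb of the start the 15000-EMP median was 3993 bp. Among only those genes with any coverage, the medians without joining were 818.5 bp (2642 genes) and 2997 bp (4465 genes). With 15000 EMPs, Ihh and Shh had more covered length than 98.4% of all genes, Boc than 97.7%, Dhh than 96.0% and Ptch1 than 95.9%. Hhip, Gas1 and Cdon lay below the median of the covered genes. At least 5 kb was covered at 5 of the 9 genes with 15000 EMPs, against 5.65% of all genes, and at Shh alone with 500 EMPs, against 1.1%.

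**Figure D2:**
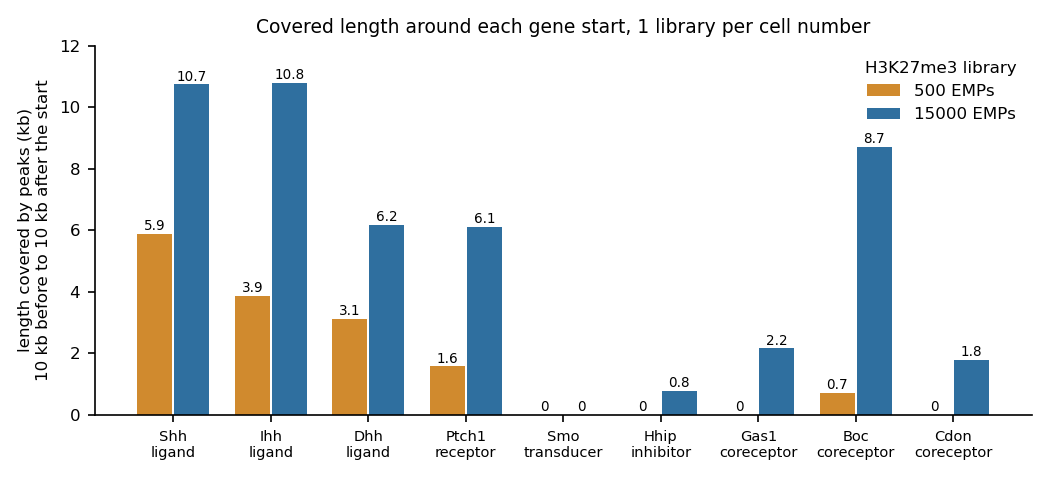
Bars give the length in kb covered by H3K27me3 peaks within 10 kb on either side of each gene start, for the 500-EMP (orange) and 15000-EMP (blue) library; there is 1 library per bar, hence no error bar. The covered length was larger with 15000 EMPs at all genes but Smo, which had 0 in both.

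The libraries were next set against each other at these genes. Of the 24 peaks of 500 EMPs, 23 shared 1 bp or more with a 15000-EMP peak (95.8%, 95% Wilson interval 79.8 to 99.3%). Of the 36 peaks of 15000 EMPs, 12 overlapped a 500-EMP peak (33.3%, 95% interval 20.2 to 49.7%). Over the whole lists the shares were 91.2% of 10223 peaks and 32.2% of 15282 peaks, so the shares at the hedgehog genes lay near those of all peaks. The shares depended on the overlap asked for. At 50% of both peaks they were 4.17% for 500 EMPs and 2.78% for 15000 EMPs, and at 50% of the peak counted they were 91.7% and 5.56%. The intervals cover counting error only and treat neighbouring peaks as independent. In base pairs around the starts, 14748 of the 15171 bp covered with 500 EMPs were also covered with 15000 EMPs (97.2%), which was 31.2% of the 47264 bp covered there. Over the whole lists these shares were 93.0% and 23.1%. The 15000-EMP length was 1.82 times the 500-EMP length at Shh, 1.97 times at Dhh, 2.79 times at Ihh, 3.87 times at Ptch1 and 12.2 times at Boc. These ratios depended on how peaks were joined. With peaks at most 3 kb apart joined they were 1.03 at Shh, 1.74 at Dhh, 1.27 at Ihh, 1.45 at Ptch1 and 3.80 at Boc, and with peaks at most 1 kb apart joined they were 1.18 at Shh, 1.74 at Dhh and 1.85 at Ihh but 4.70 at Ptch1 and 15.8 at Boc. Within 3 kb of the start, the ratio at Boc was 7.07. The median peak width at these genes was 471.5 bp with 500 EMPs and 928 bp with 15000 EMPs, and peaks over 5 kb, 3 in number, were found with 15000 EMPs alone. Over the whole lists the median widths were 363 and 770 bp. With peaks at most 3 kb apart joined, the medians at these genes were 5116 and 5355 bp, and joined stretches of 500 EMPs also exceeded 5 kb.

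Which genes were found with 500 EMPs went with how much was covered with 15000 EMPs. The 5 genes with a 500-EMP peak had at least 6104 bp covered with 15000 EMPs, and the other 3 marked genes had at most 2168 bp. The same held over the genome. Of the 1239 protein-coding genes with at least 5000 bp covered with 15000 EMPs, 98.5% had some coverage with 500 EMPs, against 27.1% of the 2234 genes with some coverage below 3000 bp and 0.281% of the 17446 genes with none. The absence of Hhip, Gas1 and Cdon from the 500-EMP list was therefore the commoner outcome for genes of their coverage.

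The authors' annotated tables gave part of these peaks to other genes. They assigned 18 of the 24 peaks of 500 EMPs and 20 of the 36 peaks of 15000 EMPs to the hedgehog gene. At Shh, 4 of the 10 peaks of 500 EMPs and 3 of the 4 of 15000 EMPs were given to 9530036O11Rik, among them the 4621-bp peak inside Shh. The authors' annotation places that peak inside 9530036O11Rik as well, so it cannot be given to 1 of the genes. At Boc, 10 of the 14 peaks of 15000 EMPs were given to Mir3081 alone, a microRNA gene inside one of them. At Dhh the 2883-bp peak of 500 EMPs was given to Rhebl1. A count of annotated rows by symbol would show 6 peaks at Shh with 500 EMPs and 1 with 15000 EMPs, although the covered length was larger with 15000 EMPs. Those 6 peaks all overlapped the 5451-bp peak, the only 15000-EMP peak given to Shh. The set of genes with a row at a distance of at most 3 kb was nevertheless the same 5 and 8 genes.

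CpG density was then examined around the starts. Within 10 kb of the Shh start, 15000-EMP peaks held 35.6 CpG per kb and the rest of the window 19.5 per kb. At Ihh the densities were 32.1 and 11.9 per kb, at Dhh 33.6 and 16.2, at Hhip 27.9 and 13.4, and at Gas1 54.0 and 20.6. At Boc, 16.2 and 11.7 per kb, the gap was smaller, and at Cdon, 15.1 and 14.8 per kb, it was close to nil. Ptch1 was the exception, with 27.5 per kb inside peaks and 29.8 outside. All peaks of the 15000-EMP library held 23.5 CpG per kb, all those of the 500-EMP library 21.3, and the genome 8.26. With 500 EMPs, in contrast, the peaks at Shh (23.3 per kb), Ihh (16.6) and Ptch1 (13.3) were poorer in CpG than the rest of their windows (30.2, 24.3 and 30.5 per kb), whereas those at Dhh and Boc were richer.

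CpG number at the start alone did not separate the genes. Within 1 kb of the start, Smo held 124 CpG and Cdon 138, more than Ptch1 with 113, Boc with 94, Dhh with 59 and Shh with 53. Ihh held 158 and Gas1 185, and Hhip 77. The median was 61 over all protein-coding genes, 83 over those with a 15000-EMP peak within 10 kb of the start and 52 over those without. Shh and Dhh, both widely covered, were below the median of all genes.

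**Figure D3:**
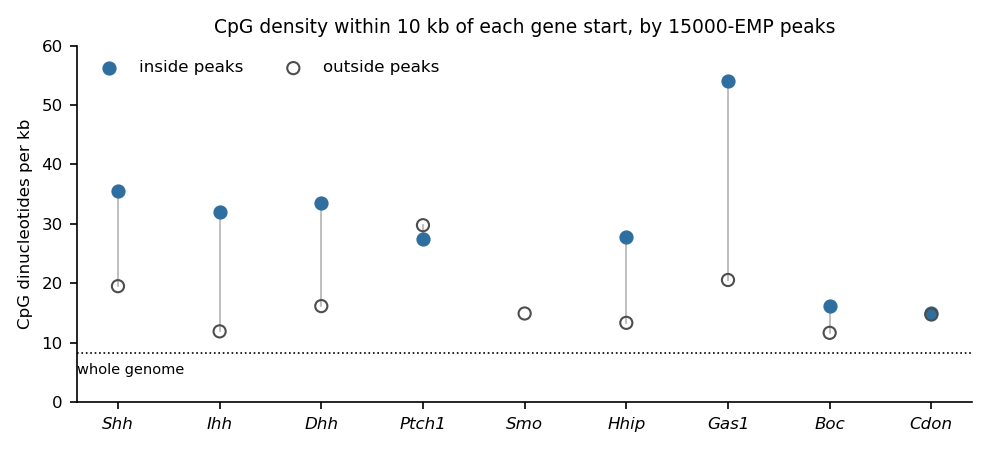
CpG dinucleotides per kb inside 15000-EMP peaks (filled) and in the uncovered remainder (open) of the 10 kb on either side of each gene start; the dotted line is the genome. Densities inside peaks were higher at Shh, Ihh, Dhh, Hhip, Gas1 and Boc, nearly equal at Cdon and lower at Ptch1, and Smo had no peak.

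To place these genes in their pathway, other hedgehog genes were counted in lists. Among 8 genes for release and uptake of ligand, 4 had a peak within 3 kb of the start with 500 EMPs and 5 with 15000 EMPs, beside 9.94% and 17% of all protein-coding genes. They included the secreted Scube proteins that help to shed ligand, with 3625 bp covered within 3 kb at Scube1, 3529 bp at Scube2 and 5144 bp at Scube3 with 15000 EMPs, and the uptake receptor Lrp2 with 5724 bp. Hhat, which attaches the palmitate to the ligand, and Disp1, which releases it, had 0 bp in both.

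Of 20 intracellular transducers, from Sufu and Kif7, which restrain or position Gli proteins, to the kinases Gsk3b and Csnk1a1 and the cilium genes Kif3a and Ift88, none had a peak within 3 kb of the start in either library, as at Smo. Among all protein-coding genes these shares were 9.94% with 500 EMPs and 17% with 15000 EMPs. In the gene or within 10 kb, Ift88 alone had a peak with 15000 EMPs, beside 25% of all protein-coding genes. No transducer had one with 500 EMPs, beside 15.1%. The 3 Gli effector genes all had a peak within 3 kb of the start with 15000 EMPs, with 2606 bp covered at Gli1, 2424 bp at Gli2 and 3222 bp at Gli3, whereas with 500 EMPs Gli1 had 421 bp, Gli2 1462 bp and Gli3 0 bp. Of 18 known target genes outside the members, 13 had a peak within 3 kb with 500 EMPs and 17 with 15000 EMPs, Mycn being the one without. The shares of all protein-coding genes there were 9.94% and 17%. The median length covered within 10 kb of the start was 10346.5 bp for these targets, 6104 bp for the 9 members, 3222 bp for the effectors, 2500 bp for release and uptake, and 0 bp for the transducers, beside 0 bp for all protein-coding genes. The targets Foxc2 and Foxl1 lie close together on chromosome 8, so their windows share bases. Foxa2, a floor plate and endoderm factor, had 17540 bp and Olig2, a factor of motor neuron progenitors, 17045 bp.

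**Figure D4:**
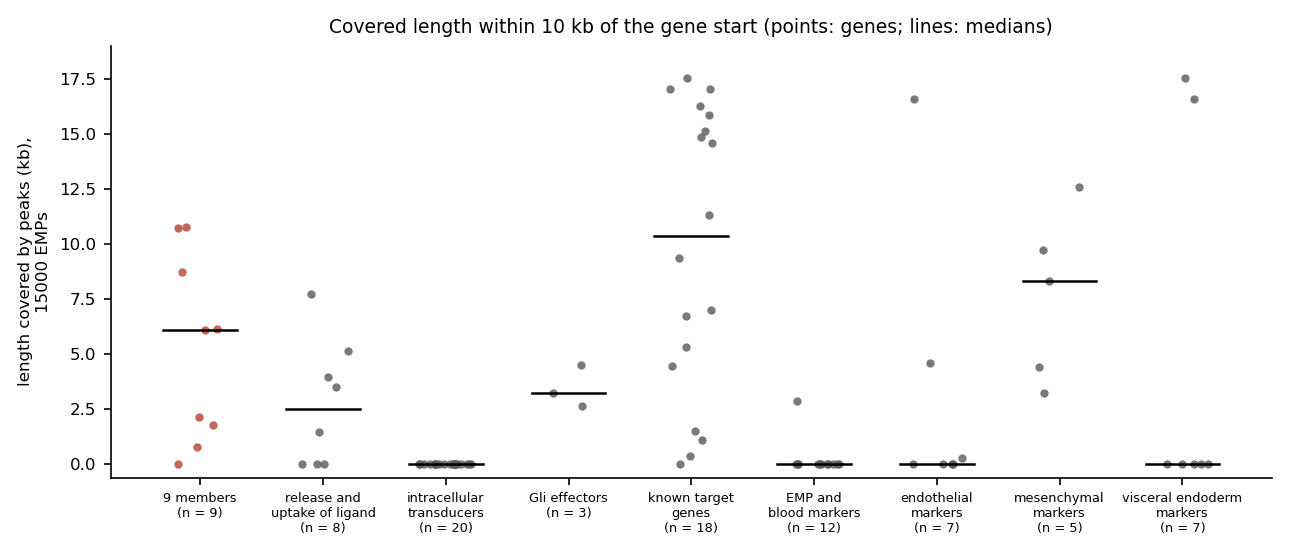
Length in kb covered by 15000-EMP peaks within 10 kb on either side of the gene start, with 1 point per gene and a line at the median of each list. The 9 members ranged from 0 to 10790 bp, all 20 intracellular transducers lay at 0, and the known target genes reached 17540 bp at Foxa2.

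The labelled cell type was checked in the same way, although a repressive mark does not measure expression. Over all protein-coding genes, the share with a peak within 3 kb of the start was 9.94% with 500 EMPs and 17% with 15000 EMPs. Of 12 EMP and blood genes, among them Kit, Itga2b, Runx1 and Gata1, none had a peak within 3 kb of the start in either library, although Fcgr3, which encodes the CD16 used in the sort, had 1060 bp with 500 EMPs and 2869 bp with 15000 EMPs covered further away, within 10 kb. Of 5 mesenchymal markers, 4 had one in both. Of 7 endothelial markers, Erg and Sox17 had one in both and Kdr with 15000 EMPs alone. Of 7 visceral endoderm markers, only Foxa2 and Sox17 had one, and Afp, Ttr, Apoa1, Apoa4 and Hnf4a had 0 bp covered within 10 kb. Sox17 was also among the endothelial markers, and Foxa2 among the known target genes above. In the gene or within 10 kb of it, Pecam1 with 500 EMPs and Pdgfrb in both libraries also had a peak.

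Other genes with a like arrangement of peaks were sought for the 5 genes whose start was crossed with 15000 EMPs. The measure was Pearson's r of covered bases over 400 bins of 100 bp, those of both libraries together, turned to the direction of transcription and limited to genes on other chromosomes. Neighbouring bins are not independent, and the values are descriptions among 4514 genes with any coverage. For Shh the most similar genes were Gata4 (r = 0.69), Sept5 (0.69) and Osr2 (0.67), for Ihh Dchs2 (0.72), Gad2 (0.72) and Barx2 (0.70), and for Dhh C1qtnf4 (0.83), Sox6 (0.81) and Cldn9 (0.80). For Ptch1 they were Adamts2 (0.78), Brinp3 (0.74) and Cbln2 (0.73), and for Boc Ube2ql1 (0.74), Slc6a20a (0.71) and Dgki (0.71). With 500 EMPs, Ube2ql1 and Dgki had 0 bp covered and Slc6a20a 346 bp, against 713 bp at Boc. Dhh thus had the closest matches of the 5, and Shh the least close.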

How the data were processed

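Per the labels, CUT&RUN was done with anti-H3K27me3 or IgG on 500 or 15000 EMPs. The authors aligned reads to mm10 (GRCm38) with Bowtie2 version 2.2.1, called broad peaks per H3K27me3 library with MACS2 version 2.1.2 against IgG, and annotated them with ChIPpeakAnno. The deposited peak lists and annotated tables used here give positions and distances in bp with no score or count, and signal tracks were not used here. In the authors' command listing the 2 cell numbers appear exchanged between thresholds, so the lists were used as labelled. IgG files were not used here. Coordinates are 1-based, 0 peaks ran past a chromosome end of GRCm38, and ends follow the peak lists, since ends in the annotated tables lay 1 bp higher.

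Genes came from GENCODE vM21, with the 5′ end of the gene as its start. Peaks were counted as present at an overlap of at least 1 bp, and lengths were computed with Python 3.11.15, pandas 2.3.3 and numpy 2.4.6 by code tested on simulated data. Figures used matplotlib 3.10.9. All 9 genes were named by rule, neighbours and similar genes by fixed rules. Members, gene lists and rules were chosen with earlier results of these data known. The hedgehog lists and markers come from general knowledge. Of the listed genes, 1 is not reported here and was left out of its list's counts and median.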

Additional observations from a re-analysis of the deposited data

How the results depend on the processing

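Counts, medians and shares over the 9 genes (12 values) were recomputed under 56 alternatives, of which 40 stayed within 1.5 times the reported value or, for shares, its 95% interval. So did 39 of 52 alternatives for the 13 covered lengths of single genes above 0 bp. The identity of the 5 and 8 marked genes held under all windows from the gene alone to 10 kb, at 1 and 5 kb from the start, with RefSeq bounds, without the narrowest peaks and by the authors' distance. The 50-kb window added Smo in both libraries (6 and 9 genes), and keeping only peaks with a counterpart in the other library left 5 of the 8 genes of 15000 EMPs by either criterion. Joining peaks within 1 kb gave 11 and 15 peaks of median width 1101 and 2436 bp for 500 and 15000 EMPs, and joining within 3 kb gave 5 and 12 peaks of 5116 and 5355 bp and raised the 500-EMP median covered length to 3323 bp. Within 3 kb of the start the 15000-EMP median was 3993 bp. The counterpart share of 500-EMP peaks was 4.17% at 50% of both peaks and 100% within 1 kb, and that of 15000-EMP peaks was 5.56% at 50% of the query peak and 2.78% at 50% of both. These shifts follow from the joining, window and overlap rules themselves. No library could be left out and no paired analysis was possible because each group holds 1 library. Depth is unknown from the peak lists, so a gene without a peak is not shown to lack the mark.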

Other observations

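Beyond 10 kb, the surroundings of the 9 genes differed. From 10 to 50 kb around Ihh lay 6 peaks of 500 EMPs and 12 of 15000 EMPs, up to 3232 bp wide, which the authors' tables give to Cfap65, Mir375 and Cryba2. The widest was given to Mir375, a microRNA gene known from pancreatic islets. No further peak lay between 10 and 50 kb of Shh, Dhh, Hhip, Gas1 or Boc in either library. Upstream of Smo, a 4937-bp peak of 15000 EMPs at chr6:29689063-29693999, given to Tspan33, ended 41504 bp before the gene. It overlapped 2 of the 4 peaks of 500 EMPs there, while the other 2 had no counterpart. The 2454-bp peak of 15000 EMPs closer to Smo had no counterpart with 500 EMPs. Single 15000-EMP peaks lay 10766 bp beyond the 3′ end of Ptch1, given to Fancc, and 49136 bp from Cdon, given to Ddx25 and Pus3.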
